A study of Mus musculus with 6 samples.

Results

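The clustered protocadherins are cell-surface adhesion proteins of neurons, encoded by the Pcdha, Pcdhb and Pcdhg genes that lie side by side on mouse chromosome 18. Members were the genes in the deposited values whose Ensembl identifier carries a protein-coding Pcdha, Pcdhb or Pcdhg symbol, and there were 57 of them among 21006 genes, with 14 in the alpha cluster, 22 in the beta cluster and 21 in the gamma cluster. mRNA was measured in prefrontal cortex, the front part of the cortex, of 18-month-old male C57BL/6 mice. The PND group (postoperative neurocognitive disorder, n = 3) received 1.5% isoflurane for 30 min and then an exploratory laparotomy, a surgical opening and inspection of the abdomen, that lasted 30 min under isoflurane, with lidocaine cream and povidone iodine on the wound afterwards. The CON group (n = 3) had neither anesthesia nor operation. All animals went through behavioral tests in the following days and were deeply anesthetized with isoflurane when the tissue was collected, and 3 of the 13 mice of each group were sequenced.

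Each protocadherin transcript starts at its own promoter and its own large first exon, which encodes the extracellular cadherin repeats, the transmembrane stretch and the near cytoplasmic part. In the alpha and gamma clusters this first exon is spliced to a set of constant exons used by every gene of the cluster, whereas a beta gene is a single exon. Single neurons choose a few of the alternative promoters at random, and the last genes of the alpha and gamma clusters, the C-type members, are used by many neurons without such a choice. The chosen proteins form homophilic contacts, by which a neuron tells its own branches from those of other neurons. A bulk cortex sample averages over many neurons with different choices, so a lower value may come from fewer cells or from less RNA per cell, and these cannot be told apart.

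The locus spanned 36930184 to 37841873 on chromosome 18 of GRCm38 in the GENCODE M21 annotation, with 257 kb for the alpha, 260 kb for the beta and 180 kb for the gamma cluster. All 14 alpha genes shared constant exons with a median of 53.4% of the exon bases of a gene (range 38.0% to 54.9%). All 21 gamma genes shared exon bases as well, with a median of 44.6% (27.8% to 66.8%). Only Pcdhb21 and Pcdhb22 did so among the beta genes, by an overlap of 455 bases at their ends. The shared sequence also differed in composition, since the constant exons had a GC content of 42.2% in the alpha and 53.7% in the gamma cluster. Fragments that fall in a constant exon do not show from which gene they came, and how they were divided was not given in the sources used here.

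**Figure D1:**
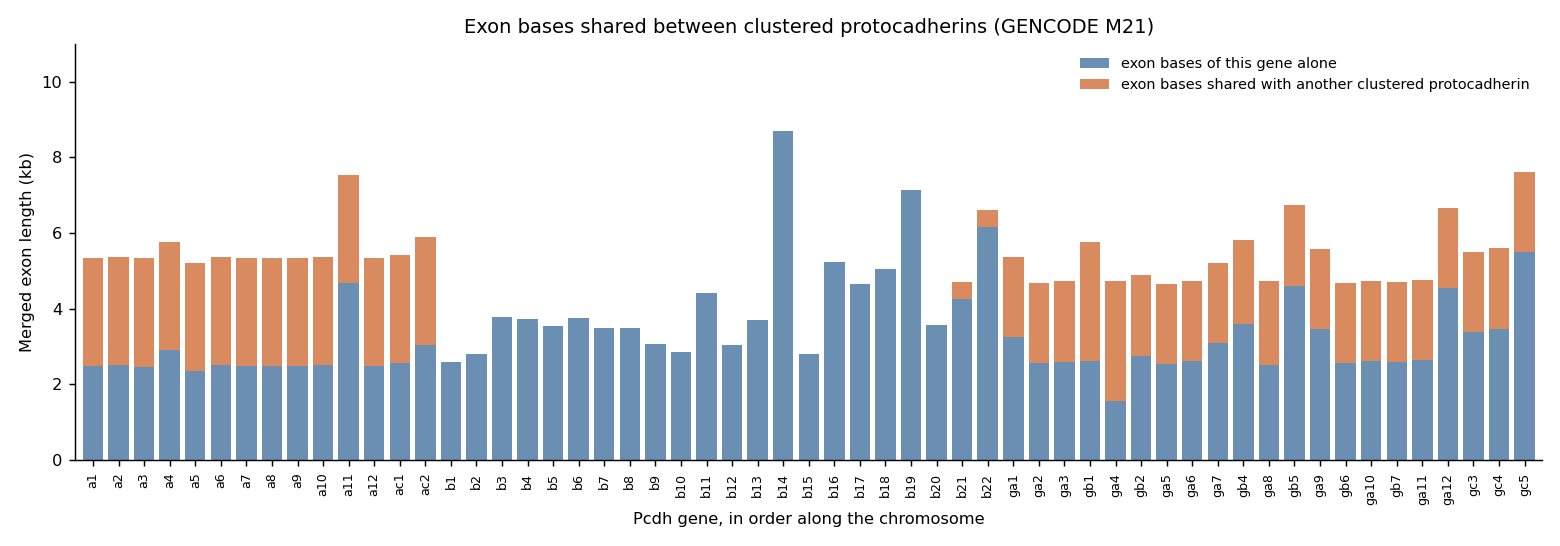
Merged exon length in kilobases (y axis) of the 57 clustered protocadherins in chromosome order (x axis), split into bases of that gene alone (blue) and bases shared with another clustered protocadherin (orange). Every alpha and gamma gene has a shared portion, with medians of 53.4% and 44.6%, whereas 2 of the 22 beta genes do.

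The first exons also hold bases that are not particular to a gene, either by overlap with another annotated gene or by like sequence elsewhere. In the median alpha gene 6.36% of the 100-base windows of the first exon also occurred in another gene, in the beta genes the median was 0.207% and in the gamma genes 0. Pcdha4 reached 96.1%, and Pcdhga4 reached 37.4%, where its exon bases overlap those of Pcdhgb1. Only 9 of the 21 gamma genes had any such window. Counted over all exons, not the first exon alone, all 21 gamma genes and 4 alpha genes overlapped predicted genes on the same strand. With their high shares of such windows, values of Pcdha4 and Pcdhga4 are uncertain as levels of those genes alone.

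Estimated fragment numbers could be worked out from the FPKM (fragments per kilobase of exon scaled to mapped reads), because FPKM multiplied by gene length moved in whole steps. The lowest alpha gene had 16 to 29 fragments per sample, while the alpha cluster together had 919 to 1429. The lowest gamma gene had 18 to 84 fragments, and the gamma cluster together had 4202 to 6634. A pool of constant-exon fragments counted in full for every gene of a cluster could thus not be larger than that lowest value. For 36 members the length behind the FPKM was the merged exon length. For the 21 members with more than 1 annotated transcript it was longer by a factor of 1.09 to 2.60, so that their deposited FPKM understate the level per exon length, equally in every sample.

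The 3 clusters differed in level, as the plot of every member by sample shows. The mean FPKM of a member over the 6 samples ran from 0.489 to 4.83 in the alpha cluster with a median of 1.13, from 0.235 to 9.59 in the beta cluster with a median of 5.10, and from 0.854 to 10.3 in the gamma cluster with a median of 4.14. Recomputed per merged exon length, the medians were 1.57, 5.21 and 5.30 FPKM. The alpha genes were thus the low cluster on both scales, and the order of beta and gamma turned with the length used. Both lengths include the constant exons of the alpha and gamma genes. The comparison with the beta genes therefore also depends on how constant-exon fragments were divided, which is not known. All 57 members had a mean of at least 0.1 FPKM and entered the test.

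**Figure D2:**
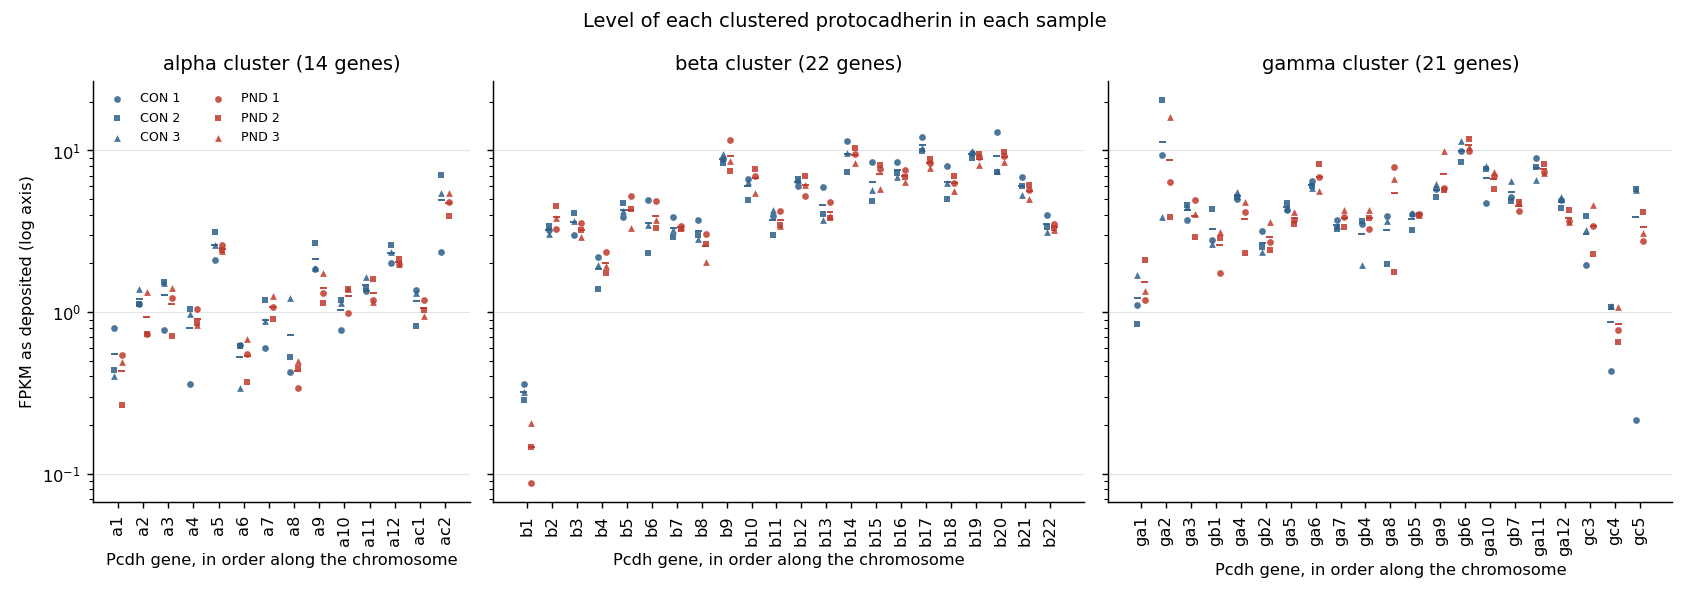
FPKM as deposited (y axis, log scale) of the 57 clustered protocadherins in chromosome order (x axis), with 1 point for each CON (blue) and PND (red) sample and a bar at the mean of each group of 3. The alpha members lie low, beta levels are lower at the start of the cluster, and single points of Pcdhgc5, Pcdhga2 and Pcdhga8 stand far from the rest of their group.

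Within the beta cluster the level followed the position of the gene. Spearman's rho between order along the chromosome and mean FPKM was 0.63 over the 22 genes, and 0.70 per merged exon length. The first 8 genes, Pcdhb1 to Pcdhb8, lay at 0.235 to 4.28 FPKM and the 14 genes from Pcdhb9 to Pcdhb22 at 3.42 to 9.59 FPKM, a split made after the values were seen. In the alpha cluster rho was 0.55 over 14 genes and fell to 0.28 per merged exon length. In the gamma cluster it was 0.057 and 0.29 over 21 genes. These relations are across genes, which are not independent replicates and which share libraries and neighbours.

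The summed level of the locus varied little. All 57 members together had 240.8, 229.3 and 243.2 FPKM in PND replicates 1 to 3 and 248.5, 244.5 and 238.6 in CON replicates 1 to 3. The alpha cluster summed to 19.7 ± 1.85 FPKM in PND and 21.6 ± 4.57 in CON (SD, n = 3 each). The beta cluster summed to 118.5 ± 9.64 and 121.9 ± 15.3, and the gamma cluster to 99.5 ± 13.0 and 100.3 ± 8.74. In each cluster the groups overlapped and the means differed by less than the SD of the CON group.

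**Figure D3:**
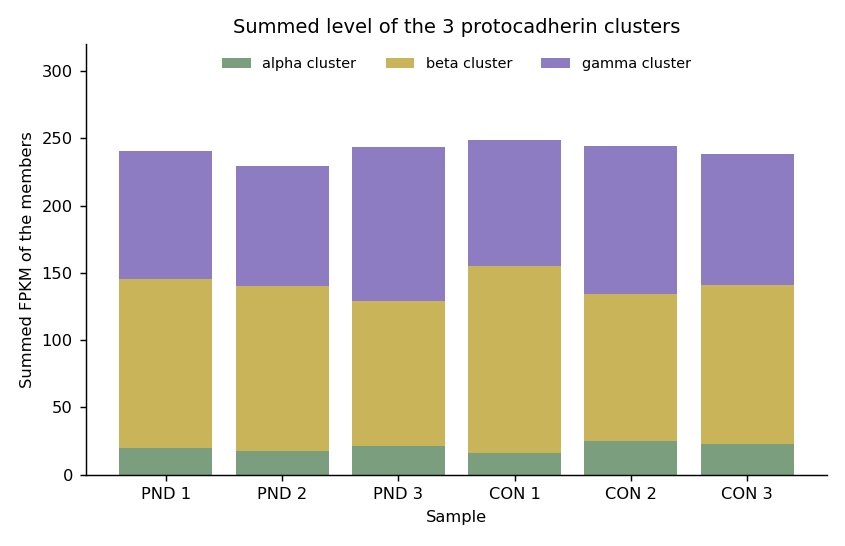
Summed FPKM (y axis) of the alpha, beta and gamma members in each of the 6 samples (x axis), stacked. The totals lie between 229.3 and 248.5 FPKM, and the share of beta is highest in CON replicate 1.

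PND was compared with CON gene by gene on log2(FPKM + 0.1) with limma across all 18185 genes that had a mean of at least 0.1 FPKM. None of the 57 members passed the cut-off of the study, an absolute log2 fold change above 1 with an unadjusted p below 0.05, against a background of 1.33% of all genes tested. By unadjusted p below 0.05 alone 1 member passed, Pcdhb17, against a background of 3.13%, and a limma-voom test on the estimated fragments gave 0. After adjustment over all genes the smallest adjusted p of a member (limma, Benjamini-Hochberg) was 0.9999, where 0.0110% of all genes tested had one below 0.05. The 95% interval of a log2 fold change reached a median of 0.70 to either side of the estimate in the alpha, 0.44 in the beta and 0.53 in the gamma cluster.

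Directions were mixed in each cluster, and a difference between clusters was not tested. In the alpha cluster 5 members had a positive and 9 a negative log2 fold change, with a median of -0.13. In the beta cluster the numbers were 9 and 13 with a median of -0.01, and in the gamma cluster 13 and 8 with a median of 0.09. All genes tested had a median of 0.01, with 52.4% positive. The gamma median was -0.10 without CON replicate 1 and -0.05 without PND replicate 3, so its sign rested on single libraries.

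**Figure D4:**
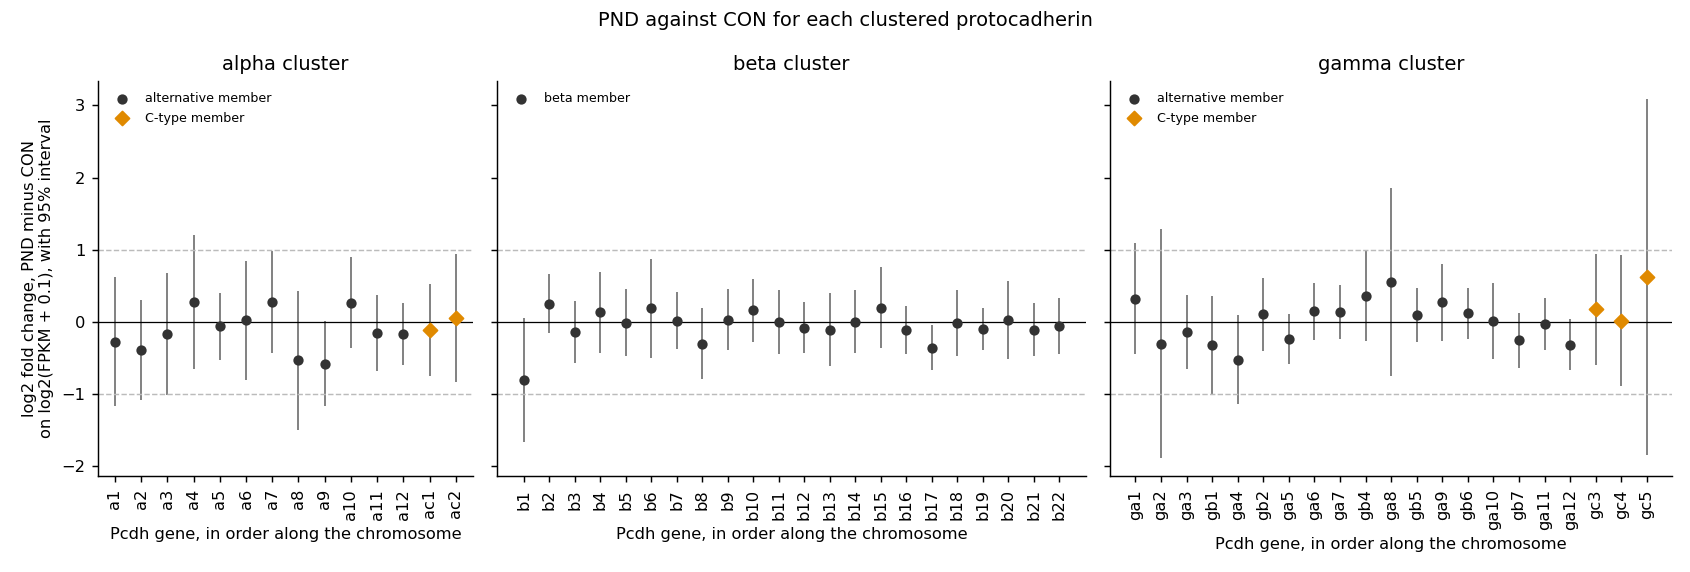
The log2 fold change of PND against CON (y axis, on log2(FPKM + 0.1)) of each clustered protocadherin in chromosome order (x axis), with its 95% interval from limma and dashed lines at the cut-off of 1 in both directions. C-type members are orange diamonds. No estimate lies beyond the dashed lines, and the interval of Pcdhb17 is the one that does not reach 0.

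In 7 members (12.3%) the groups did not overlap, and in all 7 every PND value lay below every CON value. Over all genes tested this held for 3.88%, the opposite order for 3.78%, and either for 7.66%. The 7 were Pcdha9, Pcdhb1, Pcdhb17, Pcdhga4, Pcdhga5, Pcdhgb7 and Pcdhga12, and they lie in all 3 clusters. Neighbouring members were measured in the same libraries, and gamma members share exons, so the 7 are not independent of each other.

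Pcdhb17, a single-exon beta gene among the highest of its cluster, had 8.42, 8.90 and 7.84 FPKM in PND and 12.2, 9.90 and 10.3 in CON. Every PND sample was lower, and the log2 fold change was -0.36 (SE 0.13, 95% interval -0.67 to -0.05, unadjusted p = 0.030 in limma). With each sample left out in turn the p of this gene lay between 0.024 and 0.094, and it was above 0.05 in 4 of the 6 cases. Its closest neighbours in the row of beta genes, Pcdhb16 and Pcdhb18, had log2 fold changes of -0.11 and -0.01.

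Pcdhb1, the first beta gene, was the lowest member of the locus. It had 0.087, 0.147 and 0.206 FPKM in PND and 0.361, 0.284 and 0.322 in CON. The values rest on 2, 3 and 5 estimated fragments in PND and 7, 6 and 6 in CON. The log2 fold change was -0.80 with an SE of 0.37 and did not pass the test (unadjusted p = 0.062 in limma), and at this number of fragments counting error alone is wide.

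Pcdha9, an alternative alpha gene, had 1.31, 1.14 and 1.76 FPKM in PND and 1.85, 2.69 and 1.87 in CON. The highest PND value lay just under the lowest CON value, and the log2 fold change was -0.58 (SE 0.25, unadjusted p = 0.055 in limma). Pcdha2, the alpha gene with the next smallest p on the lower side, had 0.734, 0.731 and 1.34 FPKM in PND against 1.12, 1.12 and 1.40 in CON. Its groups overlapped, through PND replicate 3, and the log2 fold change was -0.39 (SE 0.30, unadjusted p = 0.229 in limma). On the higher side of the alpha cluster were Pcdha10 with a log2 fold change of 0.27 and an SE of 0.27 (unadjusted p = 0.353 in limma) and Pcdha7 with 0.28 (SE 0.30, unadjusted p = 0.383 in limma). Pcdha10 had 0.991, 1.39 and 1.39 FPKM in PND and 0.772, 1.19 and 1.14 in CON, and Pcdha7 had 1.08, 0.901 and 1.26 in PND and 0.600, 1.20 and 0.886 in CON. In both the lowest value was that of CON replicate 1, and the groups overlapped.

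Among the gamma genes Pcdhga4 had 4.13, 2.34 and 4.80 FPKM in PND and 4.98, 5.15 and 5.54 in CON. The groups did not overlap, while 37.4% of its first-exon windows are also annotated to another gene, and the log2 fold change was -0.52 (SE 0.26, unadjusted p = 0.086 in limma). Pcdhga12 had 3.64, 4.26 and 3.63 FPKM in PND and 4.91, 4.38 and 5.13 in CON, with a log2 fold change of -0.32 and an SE of 0.15 (unadjusted p = 0.073 in limma). Neither passed the test, although Pcdhga4 had an unadjusted p below 0.05 with GC correction, with GC correction and replicate block together, and without PND replicate 3. The remaining gamma genes without overlap, Pcdhga5 and Pcdhgb7, are named after their values were seen and had log2 fold changes of -0.23 and -0.26.

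The gamma genes with the smallest p on the higher side were Pcdhgb4 and Pcdhga9. Pcdhgb4 had 3.28, 3.82 and 4.31 FPKM in PND and 3.48, 3.65 and 1.95 in CON, so that CON replicate 3 alone lay apart (log2 fold change 0.36, SE 0.26, unadjusted p = 0.212 in limma). Pcdhga9 had 5.88, 5.70 and 9.85 FPKM in PND and 5.79, 5.14 and 6.23 in CON, so that PND replicate 3 alone lay apart (log2 fold change 0.27, SE 0.23, unadjusted p = 0.268 in limma). The beta genes chosen the same way were Pcdhb2 and Pcdhb10. Pcdhb2 had 3.26, 4.57 and 3.85 FPKM in PND and 3.21, 3.40 and 3.05 in CON, with a log2 fold change of 0.25 and an SE of 0.18 (unadjusted p = 0.189 in limma). Pcdhb10 had 6.94, 7.72 and 5.49 in PND and 6.65, 4.95 and 6.39 in CON, with 0.16 (SE 0.19, unadjusted p = 0.419 in limma). Both groups overlapped in each of the 4 genes.

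The most abundant members gave each cluster a large part of its sum. In the alpha cluster Pcdhac2, Pcdha5 and Pcdha12 made up 45.9% of the FPKM on average, in the gamma cluster Pcdhgb6, Pcdhga2 and Pcdhga11 made up 27.9%, and in the beta cluster Pcdhb17, Pcdhb14 and Pcdhb20 made up 23.4%. The clusters hold different numbers of members, so these shares are not on a common scale. Per merged exon length Pcdha11 took the second place of the alpha cluster with 3.24 FPKM, after Pcdhac2 with 4.83, and Pcdhga9 with 8.94 FPKM lay above Pcdhga11 with 7.74.

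Levels of most of these abundant genes lay close together across the 6 mice. Pcdha5 had 2.58, 2.43 and 2.39 FPKM in PND and 2.10, 3.11 and 2.62 in CON, and Pcdha12 had 1.99, 2.13 and 2.00 in PND and 2.00, 2.60 and 2.37 in CON. Pcdhb14 had 9.46, 10.4 and 8.31 in PND and 11.5, 7.35 and 9.61 in CON. The groups overlapped in all 3 genes, and the log2 fold changes were -0.06, -0.17 and 0.00. Pcdhb20 had 9.18, 9.77 and 8.44 FPKM in PND and 13.1, 7.34 and 7.42 in CON, where CON replicate 1 lay above and the other CON samples below all PND samples. Pcdhgb6 had 9.94, 11.8 and 10.5 in PND and 9.91, 8.44 and 11.5 in CON, and Pcdhga11 had 7.37, 8.30 and 7.28 in PND and 8.95, 7.95 and 6.58 in CON. Their log2 fold changes were 0.03, 0.12 and -0.02, each smaller than its SE.

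The C-type members, which most neurons are thought to express without promoter choice, were measured at very different levels. Pcdhac2 was the highest alpha gene with 4.80, 3.91 and 5.46 FPKM in PND and 2.36, 7.00 and 5.43 in CON. Pcdhac1 had 1.19, 1.03 and 0.944 FPKM in PND and 1.38, 0.815 and 1.31 in CON. Both groups overlapped in each, with log2 fold changes of 0.06 (SE 0.38) and -0.11 (SE 0.27). In the gamma cluster Pcdhgc3 had 3.39, 2.29 and 4.59 FPKM in PND and 1.96, 3.91 and 3.21 in CON. Pcdhgc4, required for the survival of many interneurons, had 0.778, 0.657 and 1.08 FPKM in PND and 0.435, 1.08 and 1.09 in CON. Their log2 fold changes were 0.17 (SE 0.33) and 0.02 (SE 0.39), and in both the lowest sample was CON replicate 1.

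Pcdhgc5, the last gene of the locus, varied most. It had 2.76, 4.16 and 3.10 FPKM in PND and 0.215, 5.77 and 5.70 in CON, or 18 estimated fragments in CON replicate 1 against 525 and 458 in the other CON samples. The PND samples lay between these extremes, and the log2 fold change was 0.62 (SE 1.05, unadjusted p = 0.574 in limma). Without CON replicate 1 it turned to -0.78 with an unadjusted p of 0.00855 in limma, while the smallest adjusted p of a member was 0.899 in that fit. The other C-type members without this sample had log2 fold changes of 0.02 for Pcdhac1, -0.39 for Pcdhac2, -0.10 for Pcdhgc3 and -0.36 for Pcdhgc4, none with an unadjusted p below 0.05. The direction of 4 of the 5 C-type members thus turned to lower in PND, and that of Pcdhac1 to higher, when 1 control mouse was left out.

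CON replicate 1 had the lowest value of all 6 samples in 4 of the 5 C-type members, whereas Pcdhac1 was at its highest there with 1.38 FPKM. The summed level of the 5 was 6.34 FPKM in this sample and 12.0 to 18.6 FPKM in the other 5. They made up 22.6% of the alpha sum there against 27.6% to 30.9% elsewhere, and 2.80% of the gamma sum against 7.24% to 10.2%. The median deviation of the C-type members from their own means was -0.78 on the log2 scale in this sample, whereas that of the alternative alpha genes was -0.18, that of the beta genes 0.23 and that of the alternative gamma genes 0.04.

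GC content and cell-type markers moved in the same sample. Over 12323 genes the deviation of CON replicate 1 correlated with GC content at a Spearman rho of -0.61, and in the other samples rho ran from -0.45 to 0.57, as a description across genes of the same libraries. Over the 57 members rho was -0.41 for CON replicate 1 and reached 0.52 for PND replicate 3. After correction for a smooth GC trend the median deviation of the C-type members in CON replicate 1 was -0.46, and that of Pcdhgc5 was -2.80 against -3.12 before. Interneuron markers, 7 of 7 detected with sums of 184.7 to 212.5 FPKM in CON and 196.5 to 217.3 in PND, had a median deviation of -0.67 in this sample. Slc32a1, Pvalb, Sst and Lhx6 were at their lowest of all 6 samples there, while Gad1 was at its highest with 35.0 FPKM, Gad2 had 107.6 FPKM, and the lowest sum of the list was that of CON replicate 2. The part of the interneuron markers in the low C-type values was not tested.

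**Figure D5:**
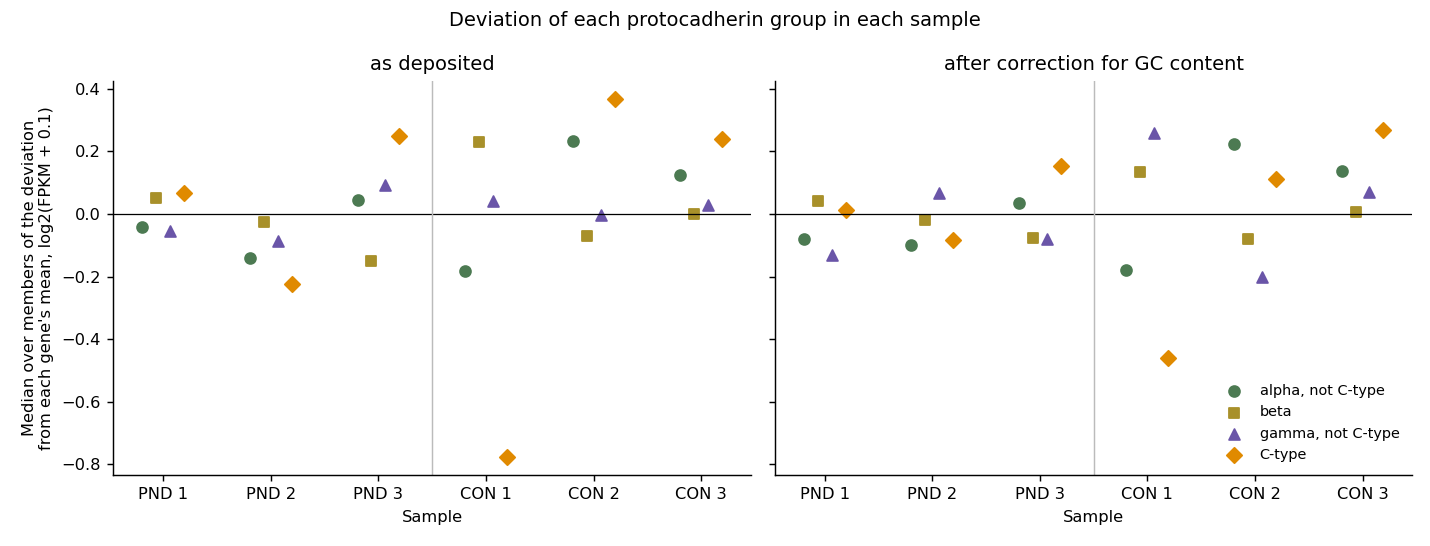
Median over members of the deviation from the mean of each gene (y axis, log2(FPKM + 0.1)) for the alternative alpha, beta, alternative gamma and C-type members in each sample (x axis), as deposited (left) and after correction for GC content (right). The C-type members of CON replicate 1 lie lowest in both panels, at -0.78 and -0.46.

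Pcdhga2 and Pcdhga8 also spread widely within both groups. Pcdhga2 had 6.36, 3.86 and 16.0 FPKM in PND and 9.39, 20.5 and 3.88 in CON, with a log2 fold change of -0.30 (SE 0.68). Pcdhga8, named after its values were seen, had 7.91, 1.76 and 6.69 FPKM in PND and 3.95, 2.00 and 3.67 in CON, with 0.55 (SE 0.56). For Pcdhga2 the highest samples were PND replicate 3 and CON replicate 2, and for Pcdhga8 they were PND replicates 1 and 3, with both groups overlapping in each gene. The within-group SD on the log2 scale was 1.73 for Pcdhgc5, 1.11 for Pcdhga2 and 0.89 for Pcdhga8. The median was 0.35 in the alpha, 0.24 in the beta and 0.32 in the gamma cluster, against 0.26 over the 10764 genes with a mean of 1 to 20 FPKM.

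Other genes of the protocadherin pathway gave no calls. Of 73 listed genes for promoter choice, signalling, cleavage and adhesion partners, 72 were tested, 25 were higher and 47 lower in PND, and 0% had an unadjusted p below 0.05 in limma, where the background was 3.13%. Alternative fits called 1 or 2 of the 72 by unadjusted p below 0.05. They were Pcdh15 in limma-voom on the estimated fragments, where 2.88% of all genes tested passed, and Pcdh7 with replicate block (1.99%). Cdh12 passed with GC correction (4.37%), and Pcdh7 and Cdh12 with GC correction and block together (3.55%). Ctcf, the DNA-binding protein that loops protocadherin promoters to their enhancers, had 14.7 ± 0.951 FPKM in PND and 15.6 ± 1.43 in CON (SD, n = 3 each, log2 fold change -0.08, unadjusted p = 0.538 in limma). Nipbl, which loads cohesin onto DNA, had 31.2 ± 3.72 and 34.0 ± 4.87 FPKM (log2 fold change -0.12, unadjusted p = 0.430 in limma). In the list for promoter choice and chromatin 3 genes were higher and 14 lower, with a median log2 fold change of -0.09. The actin and signalling list had 10 higher and 9 lower, the cleavage and trafficking list 3 and 5, and the list of other cadherins and adhesion partners 9 and 19.

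The tissue label was checked with marker lists. Cortical excitatory neuron markers were all detected, with sums of 157.9 to 193.9 FPKM in PND and 158.3 to 244.8 in CON, and pan-neuronal markers had sums of 756.2 to 861.0 and 800.9 to 883.2. Astrocyte, oligodendrocyte, microglial and endothelial markers were detected as well. Choroid plexus markers had low sums of 3.03 to 3.67 FPKM in PND and 1.53 to 3.04 in CON, and 4 of 8 passed the filter, all 4 with a positive log2 fold change. The highest of them, Clic6, had 1.88, 1.51 and 2.14 FPKM in PND and 0.962, 0.701 and 1.49 in CON (log2 fold change 0.80, SE 0.30, unadjusted p = 0.032 in limma). Serotonergic markers had sums of 11.1 to 12.1 FPKM in PND and 10.97 to 12.84 in CON, nearly all from Maob, which other cells also express. Ddc had 1.42 ± 0.485 FPKM in PND and 0.821 ± 0.171 in CON (SD, n = 3 each), Tph2 and Slc18a2 reached at most 0.238 and 0.233 FPKM, and Slc6a4 and Fev were at 0 or not listed. Effective depth worked out from the FPKM steps was 7193226 to 9388019 fragments per sample. Between 1496 and 2289 genes per sample were listed at 0.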

How the data were processed

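Prefrontal cortex mRNA of 6 mice was analysed, 3 per group, with groups taken from the treatment labels. The authors removed ribosomal RNA, filtered reads with Seqtk, aligned them with Hisat2, counted fragments with StringTie, applied TMM scaling and deposited FPKM per gene. The submitters' processing notes also name Bowtie 0.12.2 and the builds mm8 and mm9 without a role. The annotation, the use of strand and the treatment of shared exons were not given in the sources used here. The sample titles carry an age that differs from the age label, which was followed.

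Identifiers were matched to GENCODE M21 (GRCm38), where 20866 of 21006 were found, of which 16067 were protein-coding. Coordinates and exon bases describe that annotation. ENSMUSG00000007440, which M21 lists under the same symbol as Pcdha11, was called Pcdha10 after its RefSeq position. Fragments were estimated as FPKM times gene length times effective depth, and 93.8% to 94.5% of low values of single-transcript genes came out within 0.05 of a whole number. For 36 members the length was the merged exon length, for 13 the sum of the transcript lengths, and for 8 the shortest length that gave whole numbers (within 0.001) in all 6 samples. Rounded estimates would look the same.

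The log2(FPKM + 0.1) values of PND and CON were tested in limma 3.58.1 (R 4.3.3), two-sided, by lmFit and trended eBayes, with Benjamini-Hochberg adjustment over 18185 genes. Fold changes on this scale understate changes of low genes. The fit was tested on simulated data. These had the same spread setting for every gene and no GC trend between samples, unlike the libraries here. The p-values measure the spread between animals, 1 sample each. Members and lists were chosen with earlier results of these data known. Values in every sample were given for the C-type members, the 3 highest of each cluster, any member with p below 0.05 and the pair with the smallest p in each direction per cluster. Alternatives changed the pseudocount, filter, scaling, trend, pairing, GC correction or test, or left out each sample. No sequence was printed. The summed FPKM of a cluster adds values with different length definitions.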

Additional observations from a re-analysis of the deposited data

How the results depend on the processing

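No clustered protocadherin passed the cut-off under the 11 alternatives with all samples, and 0 to 1 did with each sample left out, where the 1 was Pcdhga8 without PND replicate 2. That sample held the lowest value of this widely spread gene, 1.76 FPKM, and its within-group SD with all samples was 0.89. In the fit without it 3.27% of all genes tested had an unadjusted p below 0.05 in limma. The number of members with an unadjusted p below 0.05 was 1 in the reported limma test. It was 2 with no filter (3.24% of all genes tested in that fit), 3 with quantile normalization (3.19%), 2 with no intensity trend (3.62%), 3 with GC correction (4.37%), 3 with GC correction plus replicate block (3.55%), 0 in limma-voom on estimated fragments (2.88%), and 0 to 2 with each sample left out (2.24% to 5.28%). Besides Pcdhb17, they included Pcdhb1 with no filter, quantile normalization and no trend, Pcdha9 with quantile normalization, median centring, no trend, GC correction and without PND replicate 3, and Pcdhga4 and Pcdhga8 with GC correction plus block. Pcdhb17 had unadjusted p = 0.082 in limma after median centring, 0.060 without the trend and 0.056 in voom. The median log2 fold change of the gamma cluster ranged from -0.10 to 0.12 with each sample left out, that of the alpha cluster from -0.20 to -0.04 and that of the beta cluster from -0.09 to 0.04. The log2 fold change of Pcdhgc4 turned to -0.0092 with a pseudocount of 1, -0.016 with quantile normalization and -0.049 with GC correction, with or without the block, and that of Pcdhb14 to -0.011 with median centring. The cause was not tested.

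The direction turned when single samples were left out for Pcdha5 (-0.20 to 0.07), Pcdhac1 (-0.33 to 0.017), Pcdhac2 (-0.39 to 0.38), Pcdhb14 (-0.17 to 0.15), Pcdhb20 (-0.11 to 0.30), Pcdhga2 (-0.91 to 0.28), Pcdhga11 (-0.14 to 0.078), Pcdhgc3 (-0.10 to 0.43), Pcdhgc4 (-0.36 to 0.21) and Pcdhgc5 (-0.78 to 1.33), all as log2 fold changes.

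Both groups carry replicate numbers 1 to 3. Deviations of same-numbered samples correlated at -0.27 to 0.01 (mean -0.10) and those of other pairs at -0.24 to 0.27 (mean 0.05). The ranges overlap and there are few pairs, so these values cannot decide whether the numbers pair the samples. With replicate number as a block 0 members had an unadjusted p below 0.05 (1.99% of all genes), and Pcdhb17 had unadjusted p = 0.070 in limma.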

Other observations

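Pcdhgb8, which lies among the gamma genes but is annotated as a polymorphic pseudogene and was not counted as a member, had 14.3, 3.34 and 3.60 FPKM in PND and 5.81, 3.27 and 4.07 in CON, so that PND replicate 1 stood apart.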
